A study of Sus scrofa with 32 samples.

Results

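MYH7B, TNNC1 and MYL3 are 3 genes of the slow, oxidative muscle fibre, taken here by symbol from the 17930 pig genes that were listed in at least 1 of 32 muscle libraries. Each symbol named exactly 1 gene: MYH7B is ENSSSCG00000007288, TNNC1 is ENSSSCG00000011441 and MYL3 is ENSSSCG00000011325. All 3 had reads in every library and passed the filter on low counts, which left 12821 genes for testing. The muscle was the longissimus dorsi, the loin muscle, from pigs 6 months old that are labelled wild type and were reared alike. The 4 breed groups had 8 libraries each: Landrace (L), a lean commercial breed; Dapulian (DPL), an indigenous Chinese breed; their cross Landrace x Dapulian (LDPL); and the cross Duroc x Landrace x Dapulian (DLDPL). The stated aim of the series was transcriptional variation between these breeds.

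Skeletal muscle is a mosaic of slow and fast fibres that use different versions of the same contractile proteins. Slow fibres contract slowly, resist fatigue and depend on mitochondria, and they share much of their contractile machinery with the heart. MYL3 encodes the slow and ventricular essential light chain, which braces the lever arm of the myosin motor. TNNC1 encodes the slow and cardiac troponin C, the calcium sensor of the thin filament. MYH7B encodes an ancient slow myosin heavy chain, and the microRNA miR-499, which favours the slow programme, lies within the gene. Pig loin is a mostly fast muscle, so its slow genes report on a minority of fibres. In bulk muscle, fewer slow fibres and less slow RNA per fibre cannot be told apart.

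Mean depth per group was 2.46e+07 to 2.66e+07 reads. L libraries stood apart from the other 24: along the leading axis of a principal component analysis (22.6% of variance), the empty stretch between L and the rest spanned 31.4% of the range. Their replicate numbers also run in a series of their own, so Landrace breed and any separate handling of these pigs cannot be told apart. Mitochondrially encoded genes took 31.3 ± 5.6% of reads in DPL, against 20.8 ± 2.6% in L, 22.9 ± 4.4% in LDPL and 22.7 ± 4.9% in the DLDPL libraries (SD, n = 8). L replicate 2 and DPL replicate 16 were least like the other libraries of their own group, each with a median correlation of 0.954 against up to 0.974 elsewhere. Median coverage of long genes, a sign of RNA integrity, was 91.3 ± 1.9% in DPL and 92.6 ± 0.7% in L (SD, n = 8), with DPL replicate 23 lowest of all libraries at 87.5%. ACTA1, the skeletal actin, was at 25751 to 49701 RPKM in the group means. Of 6 heart markers, the 2 that could be matched were near 0, with RYR2 at no more than 0.115 and MYBPC3 at no more than 0.0643 RPKM in any library.

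Per length, TNNC1 and MYL3 were abundant and MYH7B was not. Mean levels over the 32 libraries were 1776 RPKM (reads per kilobase of gene, scaled to the library's total reads) for TNNC1, 790.4 for MYL3 and 15.6 for MYH7B. These are ranks 41, 81 and 2425 among all listed genes. Reads per library ran from 7231 to 44802 for TNNC1, from 1723 to 25132 for MYL3 and from 681 to 5162 for MYH7B, so counting error is small beside the spread between pigs. The listed lengths were 497, 644 and 5835 bases. Reads covered 94.7% to 96.8% of MYH7B in all libraries. In the RefSeq annotation of the Sscrofa11.1 assembly, the gene interval of MYH7B overlaps MIR499 and TRPC4AP, and no gene overlaps TNNC1 or MYL3. The libraries do not mark strand, so reads of MYH7B and TRPC4AP cannot be fully told apart. TRPC4AP was nearly level, at 41.7 ± 4.3 RPKM in L and 36.7 ± 4.6 in DPL, with 38.5 ± 4.2 in LDPL and 38.6 ± 5.7 in DLDPL (SD, n = 8), with log2 changes of -0.10 to -0.03 against L and edgeR adjusted p of 0.356 to 0.821.

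All 3 genes were higher in DPL than in L, and MYH7B was also higher than in L in both crosses. Levels for comparing groups are CPM, read counts set to a common library size, scaled by TMM, a method that corrects for differences in library composition. For MYH7B the lowest, median and highest CPM were 19.1, 42.7 and 77.5 in L, 78.8, 102.5 and 212.9 in DPL, 49.6, 107.9 and 118.5 in LDPL, and 48.2, 103.5 and 175.7 in DLDPL. Every DPL library lay above every L library, by a small margin between DPL replicate 26 and L replicate 5. On the deposited RPKM scale, which lacks that correction, these groups overlapped, with 14.7 as the highest in L and 13.0 as the lowest in DPL. Of the LDPL libraries 7 of 8 lay above the highest L library, and of the DLDPL libraries 6 of 8. How many of all tested genes lie apart from L in this way was not counted. The L libraries stood apart as a whole, so this separation is not shown to be particular to MYH7B.

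**Figure D1:**
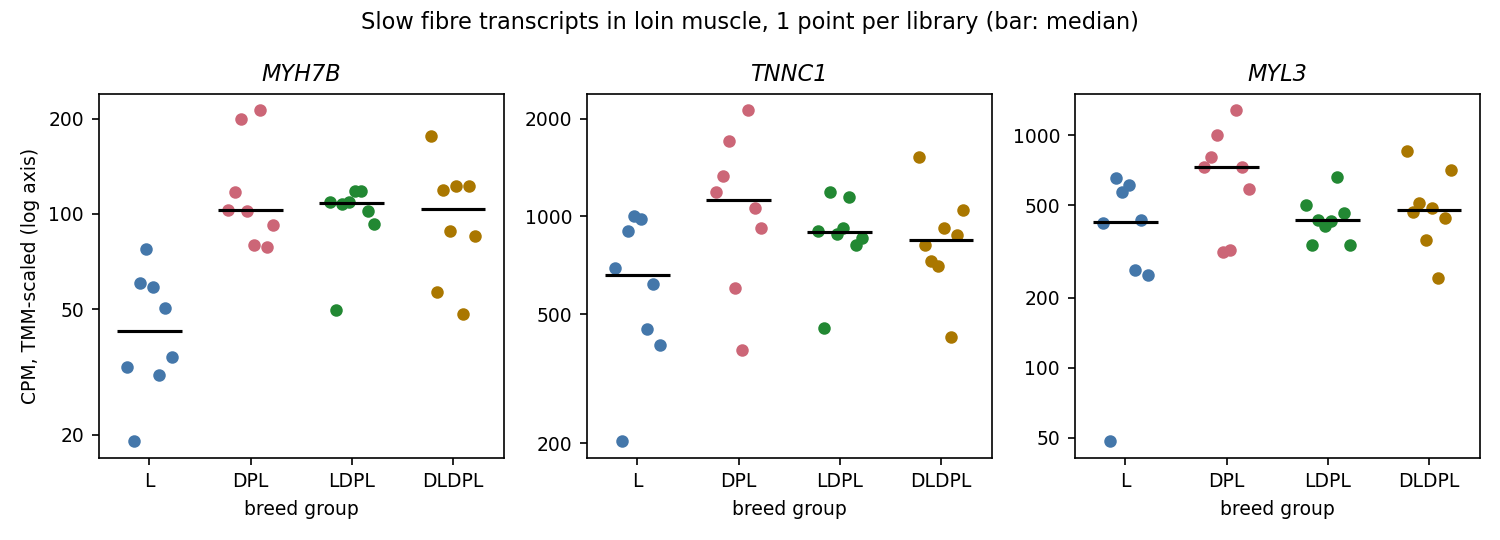
CPM scaled by TMM (log axis) of MYH7B, TNNC1 and MYL3 in each of the 32 libraries by breed group, with bars at the medians. The L libraries of MYH7B sit between 19.1 and 77.5 CPM, below nearly all others, whereas for TNNC1 and MYL3 the groups overlap and L replicate 2 is lowest of all libraries.

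For TNNC1 the lowest, median and highest CPM were 202.7, 657.8 and 1003 in L, 388.4, 1124 and 2126 in DPL, 451.4, 892.1 and 1187 in LDPL, and 426.1, 844.2 and 1525 in DLDPL. For MYL3 they were 48.3, 426.3 and 657.2 in L, 315.2, 733.5 and 1286 in DPL, 337.1, 431.6 and 662.6 in LDPL, and 244.5, 480.2 and 855.5 in DLDPL. Both genes overlapped between all groups, with 5 of 8 DPL libraries above the highest L library in each. DPL replicates 19 and 21 were the low end of their group for both genes, at 603.2 and 388.4 CPM of TNNC1 and 315.2 and 321.6 CPM of MYL3, inside the L range. L replicate 2 was the lowest library of all 32 for each of the 3 genes. The coefficient of variation in LDPL was 22.1% for MYH7B, 25.0% for TNNC1 and 23.4% for MYL3, and in the other 3 groups it was between 36.2% and 51.3%; this difference in spread was not tested.

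The contrast of both pure breeds sets Dapulian, an indigenous breed, against Landrace, a commercial one. It covers no other breed, and, as above, Landrace breed and any separate handling of the L pigs cannot be told apart. By edgeR's quasi-likelihood test, all 3 genes rose, where 19.1% of all tested genes were called higher. The 3 genes were chosen with earlier results of these data known, so their count beside this share is a description. MYH7B rose from 45.6 ± 19.4 to 123.0 ± 52.8 CPM (SD, n = 8), a log2 change of 1.43 ± 0.26 (SE, edgeR adjusted p = 7.05e-05). TNNC1 rose from 657 ± 294 to 1165 ± 565 CPM (log2 change 0.83 ± 0.29, edgeR adjusted p = 0.0234). MYL3 rose from 407 ± 209 to 724 ± 327 CPM (log2 change 0.83 ± 0.32, edgeR adjusted p = 0.04). Median change of all tested genes was -0.02.

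Only for MYH7B did the call in DPL against L hold under each of the 7 other settings and without any 1 of the 16 libraries (edgeR adjusted p up to 0.000266 without 1 library). TNNC1 missed the threshold by limma on log2(RPKM + 1) (adjusted p = 0.0621), with only these groups in the edgeR fit (0.0502), and without DPL replicate 16 (0.0505) or 23 (0.0746). Without L replicate 2 its log2 change was 0.68 (edgeR adjusted p = 0.05, just under the threshold). MYL3 missed it with only these groups in the fit (0.0869) and in 10 of 16 fits without 1 library. These were the fits without L replicates 1, 2, 8, 9 or 10 or DPL replicates 7, 11, 16, 23 or 26, with edgeR adjusted p from 0.0509 to 0.106 and log2 changes from 0.65 to 0.84. By CPM, DPL replicate 23, the library with the lowest long-gene coverage, was the highest DPL library for all 3 genes. By RPKM this held for TNNC1 and MYL3, but for MYH7B replicate 16 was highest (30.4, against 27.6 in replicate 23). Without replicate 23 the log2 changes were 1.28 for MYH7B, 0.65 for TNNC1 and 0.66 for MYL3. The parts of long-gene coverage and of RNA quality in these results were not tested.

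Both crosses had more MYH7B than L. LDPL was at 101 ± 22 CPM (log2 change 1.14 ± 0.26, SE, n = 8, edgeR adjusted p = 0.00128) and DLDPL at 102 ± 41 CPM (log2 change 1.16 ± 0.26, edgeR adjusted p = 0.00163). TNNC1 was at 896 ± 224 CPM in LDPL and 880.0 ± 318.3 in DLDPL, with log2 changes against L of 0.45 ± 0.29 and 0.42 ± 0.29 that did not pass (edgeR adjusted p = 0.249 and 0.31). MYL3 was at 447 ± 104 and 510.0 ± 192.7 CPM, with log2 changes of 0.13 ± 0.32 and 0.33 ± 0.32 (edgeR adjusted p = 0.786 and 0.497). So 1 of 3 genes was called higher in each cross, where 14.9% of all tested genes were called higher in LDPL and 11.6% in DLDPL. These comparisons and that of DPL share the L libraries.

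In the order of means, MYH7B went from DPL through DLDPL and LDPL to L, TNNC1 from DPL through LDPL and DLDPL to L, and MYL3 from DPL through DLDPL and LDPL to L. No neighbours in the orders of TNNC1 and MYL3 differed by the test, and in that of MYH7B only the step from LDPL to L did. Against DPL, 0 of 3 genes were called in either cross, by edgeR, DESeq2 or limma, where edgeR called 2.85% of all genes in LDPL and 4.1% in DLDPL. MYL3 came nearest, with a log2 change of -0.70 ± 0.32 in LDPL against DPL (edgeR adjusted p = 0.249). It was the 1 of 3 members with an unadjusted edgeR p under 0.05 there, as were 2257 of all 12821 tested genes. In DLDPL against DPL no member reached that, where 2560 of all tested genes did. The log2 changes there were -0.27 ± 0.26 for MYH7B, -0.41 ± 0.29 for TNNC1 and -0.50 ± 0.32 for MYL3. Between the crosses 0 of 3 members and 0% of all genes were called by edgeR, with 0 members and 969 of all genes at an unadjusted p under 0.05. DESeq2 called 0 members and 33 of all genes there, and limma 0 and 0.

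LDPL was also compared with its parental midpoint, the mean of the log2 levels in L and DPL. None of the 3 genes was called, by edgeR, DESeq2 or limma, where edgeR called 8.12% of all genes. No member had an unadjusted edgeR p under 0.05, where 2975 of all 12821 tested genes did. The log2 differences from the midpoint were 0.43 ± 0.22 for MYH7B (edgeR adjusted p = 0.242), 0.03 ± 0.25 for TNNC1 (0.955) and -0.28 ± 0.28 for MYL3 (0.598).

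**Figure D2:**
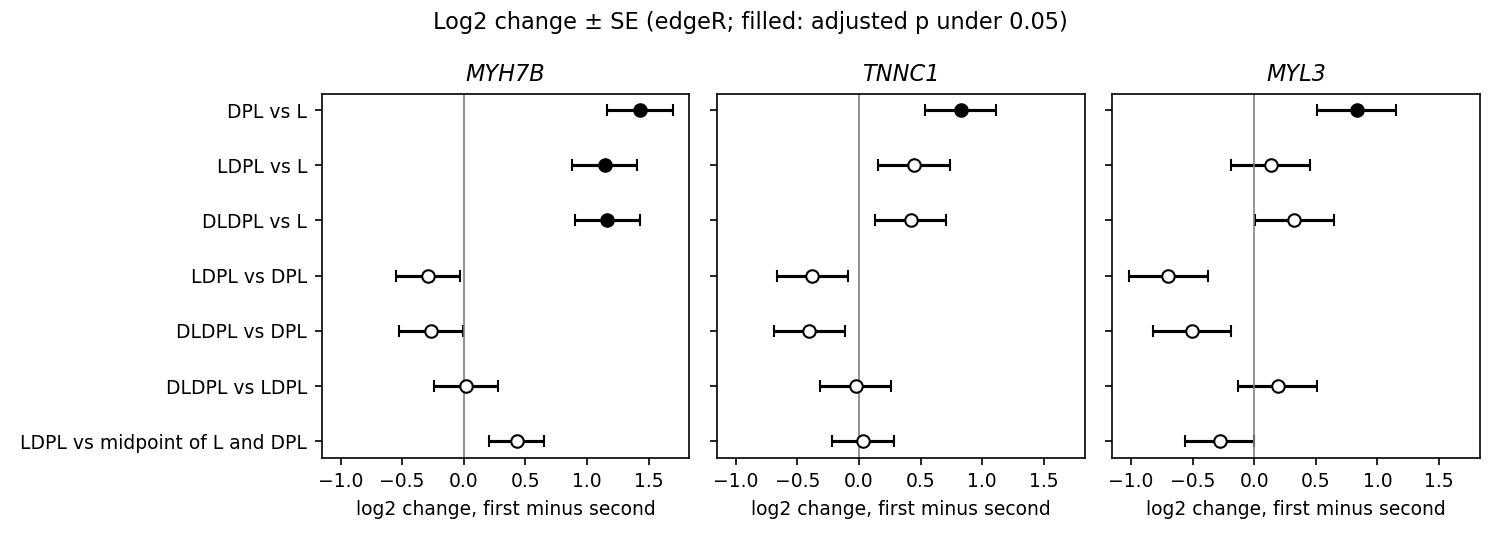
Log2 change ± SE of the 3 genes in 7 comparisons from the edgeR fit, with filled points where the adjusted p is under 0.05. MYH7B is filled in all 3 comparisons with L (1.43, 1.14 and 1.16), and TNNC1 and MYL3 only in DPL against L (0.83 each).

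A call for MYH7B and none for TNNC1 does not show that they differ, so the ratio of 2 members within a library was compared between groups, a test chosen after their values were seen. Mean log2 ratios of MYH7B to TNNC1 in CPM were -3.81 ± 0.32 in L and -3.17 ± 0.50 in DPL, with -3.14 ± 0.17 in LDPL and -3.13 ± 0.41 in DLDPL (SD, n = 8). Against L it was higher by 0.63 in DPL, 0.66 in LDPL and 0.67 in DLDPL (two-sided exact permutation tests, adjusted p = 0.0317, 0.00559 and 0.0294 over 18 ratio tests). The 3 groups other than L had nearly equal ratios, and the differences between them were 0.01 to 0.04. In DPL the call was lost without any 1 of L replicates 1, 4, 5, 7 and 8 or DPL replicates 16, 19 and 21 (adjusted p 0.0522 to 0.083, differences 0.51 to 0.65). In DLDPL it was lost without L replicate 1, 4, 7 or 8 (adjusted p 0.0545 to 0.0629), and in LDPL it held without any 1 library. On log2(RPKM + 1) the calls in DPL and DLDPL were lost too (adjusted p = 0.119 and 0.0741).

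For MYH7B to MYL3 the ratios against L did not pass in DPL, LDPL or DLDPL (differences 0.46, 0.81 and 0.63, exact permutation adjusted p = 0.328, 0.0594 and 0.175). L replicate 2 decided this. Its ratio of -1.34 was the highest of all 32 libraries, where the mean of L was -2.97, and without it the differences were 0.69, 1.04 and 0.86 (adjusted p = 0.0191, 0.0028 and 0.0126). In LDPL it also passed without LDPL replicate 5 (0.90, adjusted p = 0.0358). For TNNC1 to MYL3 no difference between groups passed (exact permutation adjusted p from 0.119 to 0.948), though LDPL against DPL, at 0.33, did without LDPL replicate 5 (0.41, adjusted p = 0.0196).

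Each slow protein has a fast counterpart, and the balance within such a pair does not depend on how libraries are scaled. The slow share is the slow gene's part of the summed RPKM of the pair, and 3 of 8 listed pairs had both symbols. The counterpart of MYL3 is MYL1, the fast essential light chain, which was at 19374 ± 2193 RPKM in L and 13360 ± 2141 in DPL, with 21707 ± 3168 in LDPL and 20621 ± 2196 in DLDPL (SD, n = 8). MYL3 made up 3.14 ± 1.62% of the pair in L and 7.02 ± 2.33% in DPL, with 3.16 ± 0.86% in LDPL and 3.73 ± 1.17% in DLDPL (SD, n = 8). Shares were higher in DPL than in each other group: DPL minus L was 3.88 percentage points, LDPL minus DPL -3.86 and DLDPL minus DPL -3.28 (two-sided exact permutation tests, adjusted p = 0.0131, 0.00839 and 0.0133 over 18 tests). These calls held without any 1 library, with adjusted p up to 0.0266. DPL ran from 3.88% to 11.2%, and its replicates 19 and 21 at the low end lay inside the range of the other groups. Shares in L and the crosses did not pass against each other (adjusted p = 0.402 to 0.975).

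By the edgeR test MYL1 itself fell in DPL against L (log2 change -0.40 ± 0.14, adjusted p = 0.0264) and was higher in LDPL and DLDPL than in DPL (0.60 and 0.50, adjusted p = 0.0211 and 0.0386). The fall against L missed the threshold with no filter on low counts (adjusted p = 0.0541) or with only these groups in the fit (0.0594).

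TNNC2, the fast troponin C, was at 17240 ± 903 RPKM in L and 16094 ± 1620 in DPL, and its log2 change was 0.06 ± 0.12 (edgeR adjusted p = 0.72). TNNC1 made up 7.28 ± 3.27% of the troponin C pair in L and 11.6 ± 4.4% in DPL, with 8.09 ± 1.66% in LDPL and 8.61 ± 3.29% in DLDPL (SD, n = 8). Between DPL and L the difference of 4.27 points did not pass (exact permutation p = 0.0457, adjusted p = 0.103). It passed without DPL replicate 19 (5.03 points, adjusted p = 0.0466) or 21 (5.22 points, 0.0339). LDPL against DPL, at -3.47 points (adjusted p = 0.113), likewise passed without either of them (-4.23 and -4.42 points, adjusted p = 0.0466 and 0.0268).

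MYBPC1 and MYBPC2 encode the slow and fast myosin-binding protein C. MYBPC1 made up 23.0 ± 5.2% of the pair in L and 36.1 ± 5.5% in DPL, with 29.0 ± 3.7% in LDPL and 32.0 ± 5.0% in DLDPL (SD, n = 8). DPL and DLDPL exceeded L by 13.1 and 9.0 points (exact permutation adjusted p = 0.00839 and 0.014), and LDPL minus DPL was -7.1 points (adjusted p = 0.0266, but 0.0527 without LDPL replicate 24). LDPL exceeded L by 6.02 points (adjusted p = 0.05), a call that was lost in 12 of 16 tests without 1 library (4.96 to 6.41 points): L replicates 1, 2, 8, 9 and 10 and LDPL replicates 5, 8, 9, 10, 14, 15 and 24. Of this pair MYBPC2 fell in DPL against L (log2 change -0.74 ± 0.13, edgeR adjusted p = 2.92e-05), and MYBPC1 had a log2 change of 0.17 ± 0.20 that did not pass (adjusted p = 0.53).

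**Figure D3:**
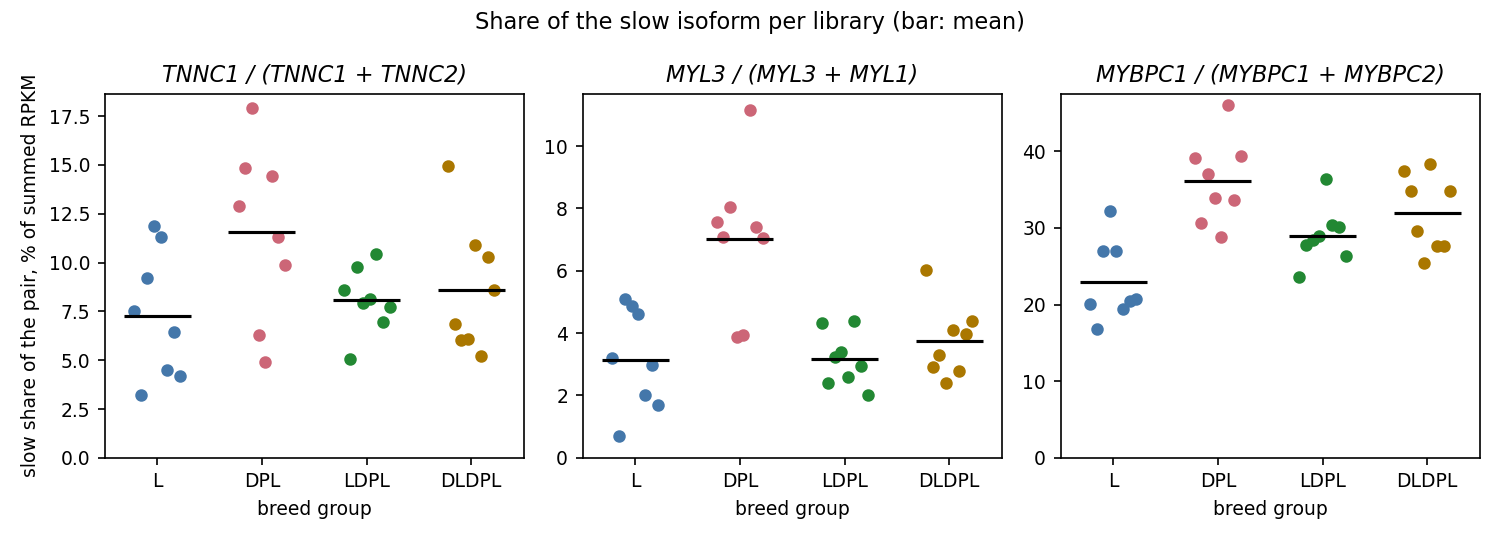
Slow isoform's share of the summed RPKM of its pair, in percent, for each library by breed group, with bars at the means. MYL3 stands at a mean of 7.02% in DPL against 3.14% to 3.73% in the other groups, the TNNC1 points overlap widely, and the MYBPC1 share is lowest in L at 23.0%.

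Levels of TNNC1 and MYL3 were correlated from pig to pig within 3 of the 4 groups. Between TNNC1 and MYL3, Pearson's r of log2 CPM was 0.971 in DPL (Spearman's rho 0.952, n = 8, exact permutation adjusted p = 0.00119 and 0.0137 over 12 relations). It was 0.965 in L (rho 0.881, exact permutation adjusted p = 0.00298 and 0.0308) and 0.947 in DLDPL (rho 0.833, 0.00446 and 0.0308). Without the 2 libraries farthest from the median these became 0.977, 0.956 and 0.768. In LDPL, where both genes varied least, r was 0.626 and rho 0.524, which did not pass (exact permutation adjusted p = 0.124 and 0.197), and r was 0.781 without the farthest 2.

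MYH7B was correlated with TNNC1 in every group by Pearson's r, and with MYL3 in L; on log2(RPKM + 1), the relation with TNNC1 in DPL and DLDPL missed the threshold. With TNNC1 its r was 0.917 in L and 0.776 in DPL, with 0.917 in LDPL and 0.761 in DLDPL (exact permutation adjusted p = 0.00488, 0.0409, 0.029 and 0.0409; rho 0.857, 0.833, 0.714 and 0.643, adjusted p = 0.0308, 0.0308, 0.0987 and 0.128). Without the 2 farthest libraries r was 0.79, 0.518, 0.402 and 0.633, so the relation in LDPL rested on those libraries, among them the low replicate 5. With MYL3 its r was 0.884 in L (rho 0.857, exact permutation adjusted p = 0.00484 and 0.0308), and 0.865 without the farthest 2. In the other groups that r was 0.627 to 0.719 and did not pass (exact permutation adjusted p = 0.0618 to 0.124, rho 0.548 to 0.690).

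**Figure D4:**
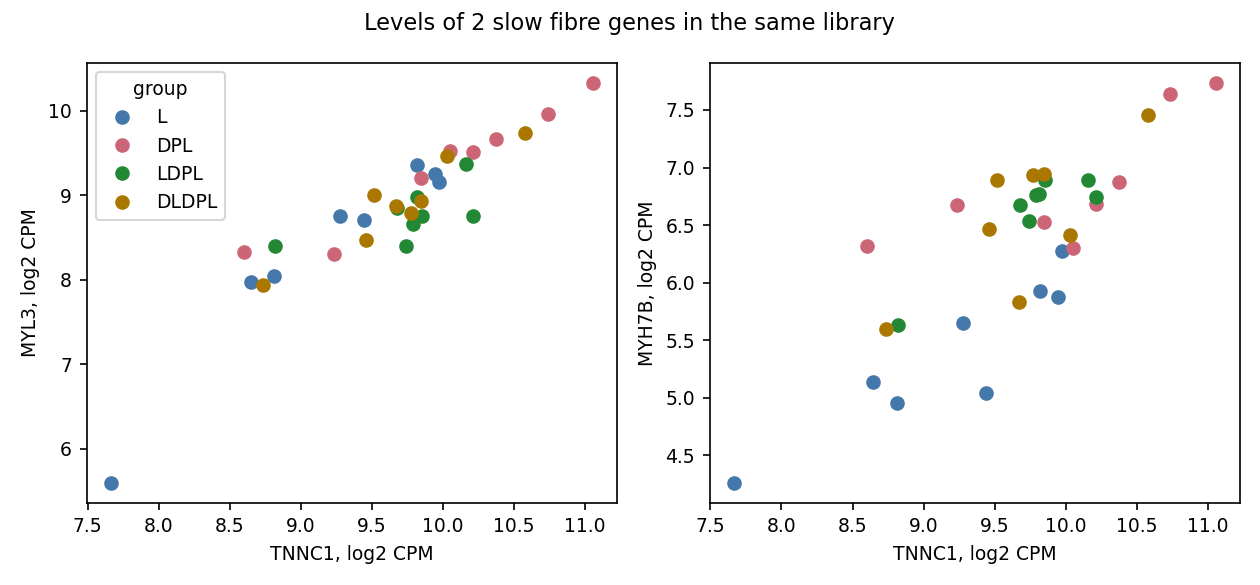
Log2 CPM of MYL3 (left) and MYH7B (right) against TNNC1 in the same library, coloured by breed group. MYL3 and TNNC1 rise together along 1 band shared by the groups, with L replicate 2 at the far low end, whereas for MYH7B most L libraries lie below the others at a given TNNC1 level.

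Which other genes had the most like pattern was asked of 5550 genes with a symbol and a mean of at least 5 CPM, by Pearson's r of log2 CPM over 32 libraries after each group's mean was taken off. The libraries and their depth are shared by all genes, so these r are descriptions. For TNNC1 the nearest were TNNI1 (r = 0.953) and TNNT1 (0.953), the slow inhibitory and tropomyosin-binding troponins that form 1 complex with it, then MYL3 (0.908), TECRL (0.844) and MYH7B (0.824). For MYL3 they were TNNT1 (0.959), TNNI1 (0.919), TNNC1 (0.908), MYH6 (0.887) and TECRL (0.835). For MYH7B they were TNNC1 (0.824), TNNI1 (0.823), TNNT1 (0.821), PDLIM1 (0.756) and MYL3 (0.743), while MYH7B ranked eighth for MYL3. Each of the 3 members was thus among the nearest 8 genes of each other member. MYH6, the alpha cardiac myosin heavy chain, is near-identical to its neighbour MYH7, which had no symbol here, so its reads are uncertain.

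The troponin partners did not pass in DPL against L: TNNI1 was at 677 ± 341 RPKM in L and 916 ± 373 in DPL (log2 change 0.60 ± 0.29, edgeR adjusted p = 0.0956) and TNNT1 at 1326 ± 691 and 1604 ± 585 (0.43 ± 0.30, adjusted p = 0.274). In the crosses their log2 changes against L were between 0.09 and 0.15 (adjusted p = 0.742 to 0.848). Levels of PDLIM1, a LIM-domain protein of the cytoskeleton, were 15.1 ± 5.0 RPKM in L and 35.0 ± 11.0 in DPL, with 28.4 ± 8.8 in LDPL and 29.0 ± 13.1 in DLDPL (SD, n = 8). Its mean was lowest in L, as were those of all 3 members, TNNI1 and TNNT1. TECRL was at 8.38 ± 6.10, 21.5 ± 12.9, 11.2 ± 6.1 and 10.3 ± 4.0 RPKM in L, DPL, LDPL and DLDPL.

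Of 15 other genes listed for slow fibres, 6 had a symbol and were tested, and 2 rose in DPL against L, in LDPL against L and in DLDPL against L, with 0 lower, where 19.1%, 14.9% and 11.6% of all tested genes were called higher. These 2 were CSRP3 and ANKRD2, proteins of the Z-disc and its surroundings that are also known to respond to stretch, by log2 changes of 3.36 ± 0.38 and 3.75 ± 0.39 in DPL against L (edgeR adjusted p = 4.34e-08 and 9.16e-09). Their r with TNNC1, as above, was 0.383 and 0.329, against 0.953 for TNNI1 and TNNT1. With MYH7B it was 0.538 and 0.421, and with MYL3 0.408 and 0.183. MYH6 and MYBPC1 had log2 changes of 0.18 ± 0.33 and 0.17 ± 0.20 (adjusted p = 0.701 and 0.53). The median of the 6 was 0.52 in DPL, 0.09 in LDPL and 0.14 in DLDPL against L, where the medians of all tested genes were -0.02, -0.03 and -0.02.

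Of 15 listed fast fibre genes 8 were tested, and in DPL against L 6 fell and 1 rose, with a median log2 change of -0.65, where 18.9% of all tested genes were called lower. PVALB, the calcium buffer parvalbumin, fell by 2.72 on the log2 scale, ATP2A1, the fast calcium pump, by 0.73, TPM1, a tropomyosin, by 0.69 and CASQ1, the calcium store protein of fast fibres, by 0.61 (edgeR adjusted p = 0.000151, 0.000153, 0.000995 and 0.00153). MYOZ1, a Z-disc protein, rose by 0.32 (adjusted p = 0.0267), but not by limma on log2(RPKM + 1) (adjusted p = 0.27). In LDPL and in DLDPL against L, 2 of the 8 fell and 0 rose, MYBPC2 and ATP2A1 in each, where 14.7% and 10.3% of all genes were called lower. With group means taken off as above, each of the 8 had a positive r with every member. These r ran from 0.10 to 0.51 with TNNC1, from 0.21 to 0.65 with MYL3 and from 0.03 to 0.38 with MYH7B. The highest were with MYL1 for TNNC1 and MYH7B and with CASQ1 for MYL3. Those of MYH7B with ATP2A1 and MYBPC2 were near 0 (0.030 and 0.048). Whether any of these r differs from 0 was not tested.

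**Figure D5:**
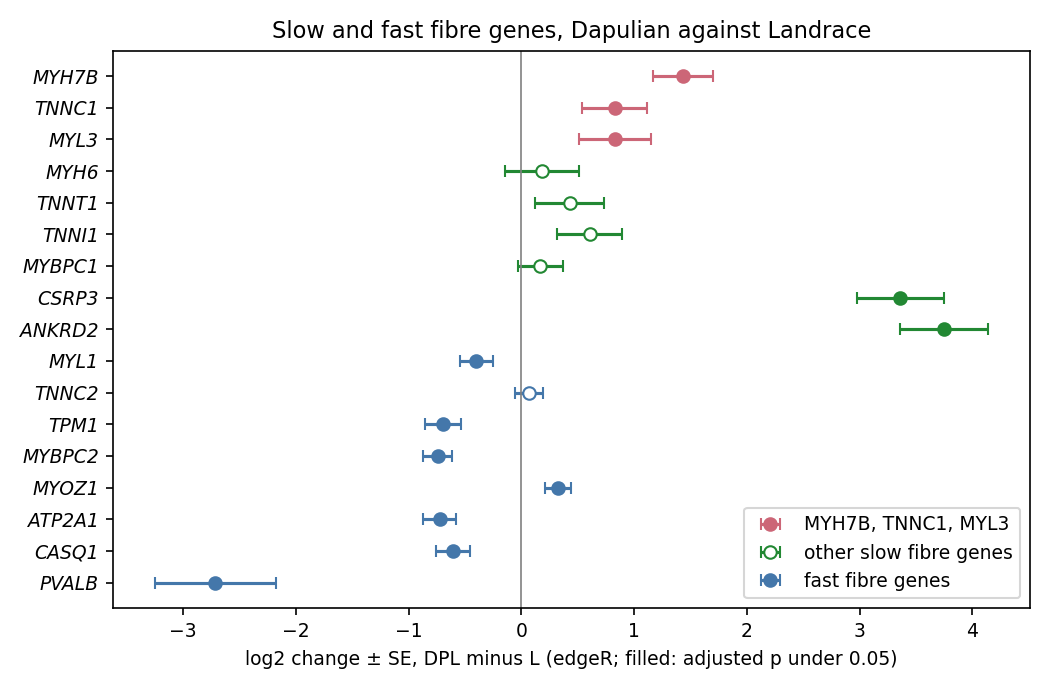
Log2 change ± SE in DPL against L of the 3 genes, 6 other slow fibre genes and 8 fast fibre genes from the edgeR fit, with filled points where the adjusted p is under 0.05. MYH7B, TNNC1 and MYL3 lie at 0.83 to 1.43, the slow troponins TNNT1 and TNNI1 are open at 0.43 and 0.60, and 6 fast genes lie below 0.

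Of 23 genes listed as regulators of the slow programme 19 were tested. In DPL against L 8 rose and 3 fell, with a median log2 change of 0.35, and the counts were 8 and 4 in LDPL and 8 and 2 in DLDPL against L. The shares of all tested genes that rose and fell were 19.1% and 18.9% in DPL, 14.9% and 14.7% in LDPL, and 11.6% and 10.3% in DLDPL, so the 3 of 19 that fell in DPL are near the share of all genes. Among those that rose in DPL were PPARGC1A, a coactivator of mitochondrial genes (log2 change 2.43 ± 0.55), its partners ESRRG (1.96 ± 0.38) and ESRRA (1.23 ± 0.17), and MYF6 (1.27 ± 0.22), a myogenic factor of mature fibres (edgeR adjusted p = 0.000688, 0.000129, 7.98e-07 and 2.94e-05). From the calcineurin pathway, which relays calcium signals to slow genes, NFATC1 rose by 0.81 and the inhibitor RCAN1 by 4.27, while the catalytic subunit PPP3CA fell by 1.08 (adjusted p = 0.00347, 1.05e-08 and 6.56e-07). SIX4, which takes part in the fast programme, fell by 0.79 (adjusted p = 5.52e-05). PPARD and VGLL2 rose by 0.53 and 0.51 and MEF2C fell by 0.45 (adjusted p = 0.0407, 0.0257 and 0.0454). By limma on log2(RPKM + 1), a scale that understates changes of low genes, the log2 changes were 1.56 for PPARGC1A, 0.86 for ESRRG and 0.52 for NFATC1, all still past the threshold (adjusted p = 0.0137, 0.004 and 0.0296). PPARD, VGLL2 and MEF2C did not hold in every setting: PPARD and VGLL2 missed the threshold by limma (adjusted p = 0.227 and 0.0753) and MEF2C with other size factors (0.0511) or no filter (0.0617). Levels in DPL differed widely from pig to pig for PPARGC1A (3.96 to 64.1 RPKM), ESRRG (0.48 to 7.26) and RCAN1 (38.8 to 581). In L they ran from 2.96 to 6.52, from 0.24 to 1.39 and from 6.63 to 12.2, so PPARGC1A and ESRRG overlapped between these groups.

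Markers of other cells moved between DPL and L as well, where 19.1% of all tested genes were called higher and 18.9% lower. Summed over the 4 fibroblast markers found of 6 listed, levels ran from 386 to 925 RPKM in L and from 162 to 497 in DPL, and 3 of 4 fell. Endothelial markers, 3 of 5 found, summed to 20.1 to 41.1 RPKM in L and 14.0 to 27.5 in DPL, and 2 of 3 fell. Of 4 smooth muscle markers found of 5, 2 rose and 1 fell, with sums of 50.9 to 105 RPKM in L and 68.4 to 139 in DPL. Of the fibre markers found, ACTA1 fell (log2 change -0.81 ± 0.23, edgeR adjusted p = 0.00534) and DES, the fibre's desmin, rose (0.47 ± 0.14, adjusted p = 0.0102). Of the remaining lists, 1 of 3 adipocyte markers fell, and none of 3 macrophage, 3 blood, 2 Schwann cell, 1 lymphocyte and 1 satellite cell markers tested was called by edgeR. No found marker in these lists was at 0 in a whole group. In LDPL against L (14.9% of all genes called higher, 14.7% lower), 3 of 4 fibroblast and 3 of 3 endothelial markers fell and 2 of 4 smooth muscle markers rose, and no marker in the remaining lists was called by edgeR. In DLDPL against L (11.6% higher, 10.3% lower), 0 fibroblast and 1 endothelial marker fell and 3 smooth muscle markers rose. There the adipocyte marker CIDEC (log2 change 1.58 ± 0.52) and the blood marker HBM (2.48 ± 0.63) rose as well, and the lymphocyte marker CD2 fell (-1.12 ± 0.38; edgeR adjusted p = 0.0259, 0.00446 and 0.0285). The part of these shifts, and of the mitochondrial share, in the changes of MYH7B, TNNC1 and MYL3 was not tested; with mitochondrially encoded genes taken out before scaling, all 3 calls in DPL against L held.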

How the data were processed

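RNA of the loin muscle of 32 pigs, 8 in each of 4 groups, was sequenced by the authors. The library kit named in the labels' protocols is of a type that keeps no strand information. Bowtie 0.12.2 and Cufflinks are listed in the submitters' processing notes, as is mm8, a mouse build, although the identifiers are of pig. Which pig annotation was used is not given in the sources used here; positions are therefore left out. The authors deposited raw counts of uniquely mapped reads and RPKM values per gene. The deposited counts add up to the total in each file header, and the deposited RPKM recompute from them within a relative deviation of 2.2e-14. Genes with no reads are unlisted and were set to 0. A name table gave symbols for 60.4% of 17930 identifiers.

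Genes with few reads were dropped by filterByExpr in edgeR 4.0.16, which asked for a count of 10 and a total of 15, and the rest scaled by TMM. One quasi-likelihood model with 4 groups was fitted over all 12821 genes; adjusted p-values are Benjamini-Hochberg over all of them, called under 0.05. SE is the log2 change divided by the square root of F. Slow shares, ratios and correlations (log2 CPM, prior count 2) used exact permutations of single values, adjusted over their family. Alternatives were other size factors, DESeq2 1.42.0, limma 3.58.1 on log2(RPKM + 1) or + 0.1, no filter, fewer groups, no mitochondrial genes and each library left out. No 2 libraries of a group agreed within sampling noise (smallest chi-square per degree of freedom 31.3). Named genes were the members, listed fibre genes and regulators that passed in DPL against L, and the 5 genes most like each member; TNNC2, MYBPC1, TRPC4AP and marker genes were named after their values were seen. Members and lists were chosen with earlier results of these data known. No sequences of these genes were used here.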

Additional observations from a re-analysis of the deposited data

Results flagged for a closer look

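MYH7B in LDPL replicate 5 lay far below the rest of its group, at 49.6 CPM where the nearest LDPL library was at 92.8 and the highest at 118.5. Its gap was 0.627 of the range of the group, above Dixon's 95% critical value for 8 samples. TNNC1 was also lowest in that library among LDPL, at 451.4 CPM. This was the 1 flag in 24 checks of groups, and chance flags about 1 in 20.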

How the results depend on the processing

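For DPL against L, the log2 change of TNNC1 was 0.66 by limma with either pseudocount and 0.84 with only these groups in the fit, past the threshold in none of them, and MYL3 was likewise at 0.84 with only these groups. With 1 library left out, TNNC1 ranged from 0.65 to 0.96 and MYL3 from 0.65 to 0.96. MYH7B kept its direction and its call against L in DPL, LDPL and DLDPL without any 1 library.

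With the replicate number as a block over the 5 numbers that L and LDPL share, MYH7B was at 0.99 in LDPL against L (edgeR adjusted p = 0.07), past the threshold no longer. Same-numbered libraries did not deviate together (r from -0.05 to 0.09) and none of the 5 correlated best with its own number. No label says that the numbers pair pigs. These correlations cannot decide it, since a pairing need not show in the levels of most genes. In those libraries without the block, MYH7B stayed past the threshold and MYL3 was at -0.047.

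Some changes that did not pass changed sign, while others, such as those of TNNC1 in both crosses against L, kept it in every setting. MYL3 in LDPL against L ranged from -0.045 to 0.27 without 1 library. For DLDPL against LDPL, MYH7B was at -0.0040 and -0.0076 by limma with pseudocounts 1 and 0.1 and ranged from -0.14 to 0.13 without 1 library, and TNNC1 from -0.18 to 0.080. TNNC1 against the midpoint ranged from -0.038 to 0.13.

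Slow shares without 1 library ranged, in percentage points, as follows. That of TNNC1 was 3.37 to 5.22 in DPL against L, -4.42 to -2.56 in LDPL against DPL and -0.375 to 1.01 between the crosses. That of MYL3 in LDPL against L was -0.330 to 0.300. That of MYBPC1 was 4.96 to 7.34 in LDPL against L and -8.16 to -5.67 in LDPL against DPL.

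On log2(RPKM + 1), r of MYH7B and TNNC1 was 0.738 in DPL and 0.765 in DLDPL, and their ratio against L was 0.53 and 0.57, none past the threshold. Without 1 library the ratio of MYH7B to TNNC1 was 0.51 to 0.72 in DPL and 0.59 to 0.77 in DLDPL against L, -0.056 to 0.15 in LDPL and -0.045 to 0.16 in DLDPL against DPL, and -0.063 to 0.11 between the crosses. That of MYH7B to MYL3 against L was 0.33 to 0.69 in DPL, 0.71 to 1.04 in LDPL and 0.53 to 0.86 in DLDPL. That of TNNC1 to MYL3 was -0.10 to 0.13 in DLDPL against L and 0.26 to 0.41 in LDPL against DPL. The cause of these shifts was not tested. Member ratios were chosen after seeing the data. Depth limits none of the 3 genes; with 8 pigs a group, the spread between pigs does.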
